A study of Homo sapiens with 18 samples.

Results

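The change of each gene from day 0 (D0) to day 16 (D16) of hematopoietic differentiation was compared between WT and USB1 mutant cells. The comparison finds genes whose change differs by genotype, and the genotypes may differ at D0, at D16 or at both. The members were the 12 of 18 RNA-seq libraries taken at D0 and D16, in 4 groups of 3 libraries: WT D0, USB1 mutant D0, WT D16 and USB1 mutant D16. Of 35168 gene identifiers in the 12 libraries, 16211 had enough counts to be tested. All cells were H1, an established human embryonic stem cell (hESC) line, and the mutant carried a loss-of-function deletion of 1 base in USB1, a frameshift introduced with CRISPR/Cas9. Edited cells were chosen by hand from sparse cultures, so the genotype contrast is that of a picked line against H1, and any other difference between these lines cannot be told apart from the edit. D0 cells were undifferentiated hESCs, and D16 cells are labelled as hematopoietic progenitors grown from them in serum-free medium with cytokines.

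USB1 is a 3′ exonuclease known for its work on the tail of the U6 RNA of the spliceosome, and its loss in patients causes poikiloderma with neutropenia, a shortage of neutrophils. On the way to blood, a pluripotent cell turns off factors such as POU5F1, NANOG and LIN28A and turns on blood regulators such as RUNX1, GATA2 and the C/EBP proteins. C/EBPα and C/EBPε in turn drive the granule proteins of neutrophils and eosinophils, while GATA factors also serve the mast cell, erythroid and megakaryocyte branches. An interaction between genotype and day is the change from D0 to D16 in the mutant minus the same change in WT, on a log2 scale. It equals the genotype difference at D16 minus that at D0, so a gene can reach it from either day.

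The 12 libraries held 8901471 to 17536723 estimated counts each. The pluripotency genes POU5F1, NANOG, SOX2 and LIN28A lay at 213 to 2434 CPM (counts per 1000000 after TMM scaling) in the D0 libraries and at 0 to 67.9 CPM at D16. At D16 the blood cell markers PTPRC (CD45) and SPN (CD43) lay at 422 to 849 CPM, CD34 lay at 78.2 to 174 CPM, and the stroma markers COL1A1, COL3A1 and DCN were at or below 4.50 CPM. Markers of mature branches, among them PRG2 of eosinophils and MPO of neutrophils, were abundant, at once in the D16 libraries, where fewer cells of a type cannot be told apart from less RNA per cell. Replicate 1 stood apart from replicates 2 and 3 in both genotypes at D0, and WT replicate 3 stood apart at D16. No label states that the replicates came from separate cultures, so the p-values measure only the spread between these libraries.

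The interaction was not called for most genes. Among those called, more were classed as rising less or falling less in the mutant than as moving further. The interaction was called for 2061 genes, or 12.7% of those tested (edgeR quasi-likelihood test, Benjamini-Hochberg adjusted p under 0.1). It was positive for 984 genes (6.07%) and negative for 1077 (6.64%), and 1089 (6.72%) exceeded 2-fold. The change itself was called for 12957 genes in WT (79.9%) and for 12473 in the mutant (76.9%). The number of called interactions was 1280 without WT D0 replicate 2, 1296 without mutant D0 replicate 3, 1343 without WT D16 replicate 1 and 3434 without WT D16 replicate 3.

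Of the 2061 called genes, 1454 (70.5%) rose less or fell less in the mutant, which includes genes that changed in the opposite direction. A further 411 (19.9%) changed more in the WT direction, while for 196 the WT change was not called (90 higher, 0.555%, and 106 lower, 0.654%). These classes are set by the WT change, which is also a term of the interaction. Spread in the WT libraries thus moves genes toward the classes that rose less or fell less, and the split has no test of its own. Genes that rose in WT and rose less in the mutant numbered 746 (4.60% of tested), with a median change of 1.89 in WT and 0.86 in the mutant. In 516 of them the mutant rise was itself called. In the other 230 genes the rise failed in the mutant, meaning that its change was not called (172) or was a fall (58). Genes that fell in WT and fell less in the mutant numbered 708 (4.37%), with medians of −2.22 and −0.98, and in 202 of them the fall failed, since the mutant change was not called (151) or was a rise (51). Moves beyond those of WT were fewer: 186 genes rose further (1.15%) and 225 fell further (1.39%). The plot of both changes shows these classes.

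**Figure D1:**
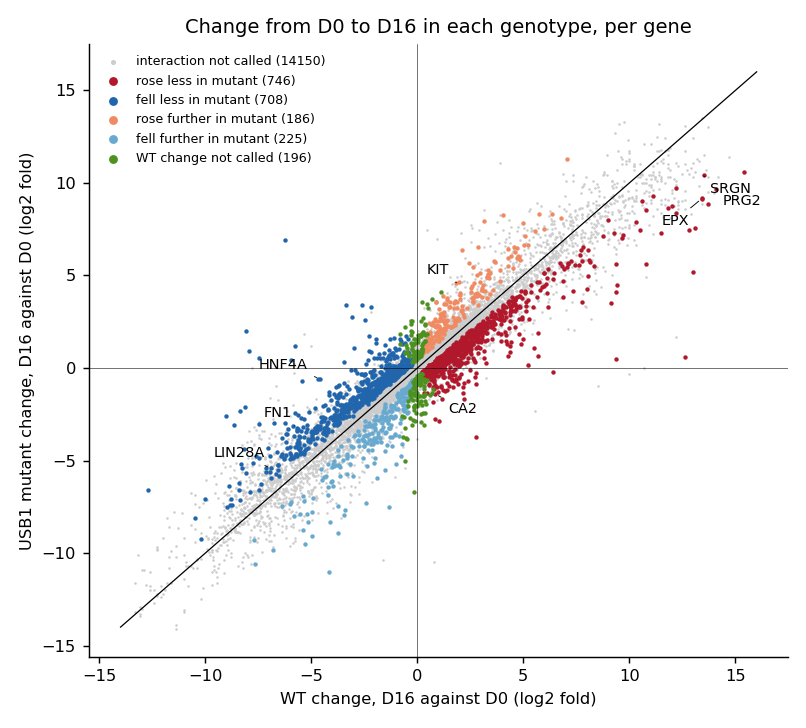
Each point is 1 of 16211 genes, with its log2 change from D0 to D16 in WT on the horizontal axis and in the USB1 mutant on the vertical axis, and the line marks equal change. The 746 genes that rose less lie below the line at right and the 708 that fell less lie above it at left, and the 186 and 225 genes that moved further lie on the opposite sides.

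The interactions came mainly from D16. Among the 2061 genes the genotype difference was called at D16 alone for 1766 (85.7%), at D0 alone for 80, at both days with opposite signs for 39 and with the same sign for 17, and at neither day for 159. Over all genes the genotype difference was called for 281 at D0 (1.73%) and for 5118 at D16 (31.6%). Of the 5118 genes called at D16, 1822 had a called interaction, and for the rest the difference of the differences did not pass the test, which does not show that both days were alike. Of the 281 genes called at D0, 136 had a called interaction and 93 kept the same sign with a call at D16.

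**Figure D2:**
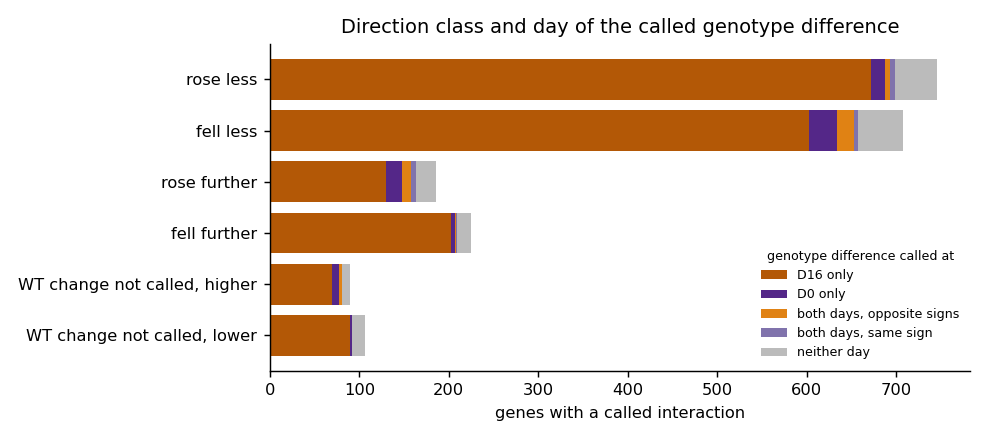
Each bar is a direction class of the called interactions, its length is the number of genes, and the colours give the day at which the genotype difference itself was called. In every class the largest share is D16 only, led by 672 of the 746 genes that rose less and 603 of the 708 that fell less.

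Of 432 genes tested on the lists, 68 had a called interaction (15.7%), against 12.7% of all genes. Eosinophil genes had the lowest median of the 25 lists with tested members. The list holds the toxic proteins of the eosinophil granule with enzymes and receptors of this lineage, which uses both C/EBPε and GATA factors. Of 10 tested members 6 were called, all of them as rising less in the mutant, and the median interaction of the list was −4.00, or −3.81 with groups under 3 counts set to 3 (all genes: 0.020). The median genotype difference of the list was −2.20 at D16 and 1.30 at D0. Levels at D0 were near 0, and 1 member was called higher there. At D16, 9 of the 10 were lower in the mutant (16.0% of all genes were called lower). EPX (eosinophil peroxidase), PRG2 (major basic protein), PRG3 (its close relative), RNASE2 (eosinophil-derived neurotoxin), CLC (galectin-10, the protein of Charcot-Leyden crystals) and ALOX15 (15-lipoxygenase) made up the 6.

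RefSeq promoters (GRCh38.p14) were at hand for PRG3, RNASE2 and CLC among these 6, and for KIT, the stem cell factor receptor, which moved the other way. The 250 bases before each start are shown because the first 3 genes moved together, with each match to the C/EBP motif TTGCNNAA or to the GATA motif GATAA on either strand in capitals. Those of EPX, PRG2 and ALOX15 are not shown.
PRG3, chr11:57381151-57381400, minus strand: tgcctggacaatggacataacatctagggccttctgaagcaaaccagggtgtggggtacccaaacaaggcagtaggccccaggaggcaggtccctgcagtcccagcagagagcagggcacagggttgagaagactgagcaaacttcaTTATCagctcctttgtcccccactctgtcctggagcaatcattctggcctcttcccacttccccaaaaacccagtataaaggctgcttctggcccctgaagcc
RNASE2, chr14:20955237-20955486, plus strand: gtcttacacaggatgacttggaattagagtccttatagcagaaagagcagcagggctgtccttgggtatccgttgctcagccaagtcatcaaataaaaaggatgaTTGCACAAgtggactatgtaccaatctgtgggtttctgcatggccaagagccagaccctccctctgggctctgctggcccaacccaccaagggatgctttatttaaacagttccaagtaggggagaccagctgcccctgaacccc
CLC, chr19:39738030-39738279, minus strand: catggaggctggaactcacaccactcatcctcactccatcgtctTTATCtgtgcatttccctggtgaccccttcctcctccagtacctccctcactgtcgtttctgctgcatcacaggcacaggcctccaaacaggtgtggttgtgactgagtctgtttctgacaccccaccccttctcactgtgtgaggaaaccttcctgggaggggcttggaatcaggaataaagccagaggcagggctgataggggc
KIT, chr4:54657707-54657956, plus strand: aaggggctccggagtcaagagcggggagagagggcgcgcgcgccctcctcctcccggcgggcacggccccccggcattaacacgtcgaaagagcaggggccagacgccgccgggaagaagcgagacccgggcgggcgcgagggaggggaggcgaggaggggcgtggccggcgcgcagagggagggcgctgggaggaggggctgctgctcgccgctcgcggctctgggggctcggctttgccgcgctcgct

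The C/EBP motif occurred once in the RNASE2 stretch and in none of the other 3, and the GATA motif occurred once each in the PRG3 and CLC stretches, 103 and 206 bases before the start. Of 27305 promoter stretches of this length, 9.13% hold TTGCNNAA and 21.0% hold GATAA, and a match is a description of the letters and not a binding site.

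EPX lay at 1.02, 1.01 and 1.58 CPM in the WT libraries at D0 and at 17283, 13028 and 7929 CPM at D16. In the mutant it lay at 1.03, 1.21 and 5.51 CPM at D0 and at 1417, 1814 and 1383 CPM at D16. All 3 mutant libraries were below all 3 WT libraries at D16, while the genotypes overlapped at D0, where mutant replicate 3 was highest. EPX thus rose in both genotypes, by 13.40 in WT and by 9.14 in the mutant (log2), and the interaction was −4.26 ± 0.69 (SE, adjusted p = 0.00229). PRG2 followed the same course, from 1.88, 0.811 and 2.21 CPM at D0 to 35334, 28136 and 18939 CPM at D16 in WT and from 2.25, 3.24 and 10.7 to 4351, 5853 and 3677 CPM in the mutant. Its interaction was −4.40 ± 0.66 (adjusted p = 0.00143), of which −2.57 was the genotype difference at D16.

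CLC differed at both days, in opposite directions. It lay at 1.57, 2.03 and 0.633 CPM in WT and at 5.07, 5.56 and 6.85 CPM in the mutant at D0, a difference of 1.97 (adjusted p = 0.0253). At D16 it lay at 8457, 7058 and 5303 CPM in WT against 2406, 2251 and 1187 CPM in the mutant, a difference of −1.83, and the interaction was −3.80 ± 0.47 (adjusted p = 0.000422). ALOX15 rose from 0.471, 0.608 and 0.527 to 142, 138 and 82.0 CPM in WT but only to 6.26, 13.3 and 9.202 CPM in the mutant, with an interaction of −4.21 ± 0.66 (adjusted p = 0.00183) and no difference called at D0 (0.56). PRG3 stood at 5297, 4524 and 2677 CPM in WT and at 282, 520.4 and 316 CPM in the mutant at D16 (interaction −4.88, adjusted p = 0.00755). RNASE2 held 2 counts over the WT D0 libraries, so its fold of rise is not given, and stood at 629, 926 and 537 CPM in WT against 99.9, 124 and 99.6 CPM in the mutant at D16. Reads of RNASE2 and RNASE3, and of PRG2 and PRG3, may be shared between the near copies.

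Summed over the list, eosinophil genes gave 67550.5, 54230.5 and 35731 CPM in the WT D16 libraries and 8757, 10768 and 6806 CPM in the mutant ones, so the groups did not overlap. The list thus took 3.57% to 6.76% of the CPM of a WT D16 library and 0.681% to 1.08% of a mutant one. At D0 the sums were 5.10, 5.34 and 6.12 CPM in WT and 9.29, 12.1 and 26.1 CPM in the mutant, with mutant replicate 3 highest. Without that library the median interaction of the list was −2.75. The receptors IL5RA and CCR3, through which eosinophils receive their growth and homing signals, were lower at D16 (−1.12 and −1.67) without a called interaction (adjusted p = 0.458 and 0.262), each with 5 or fewer counts per group at D0. SIGLEC8, an eosinophil surface lectin, passed neither test (D16 difference −0.46, adjusted p = 0.107).

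**Figure D3:**
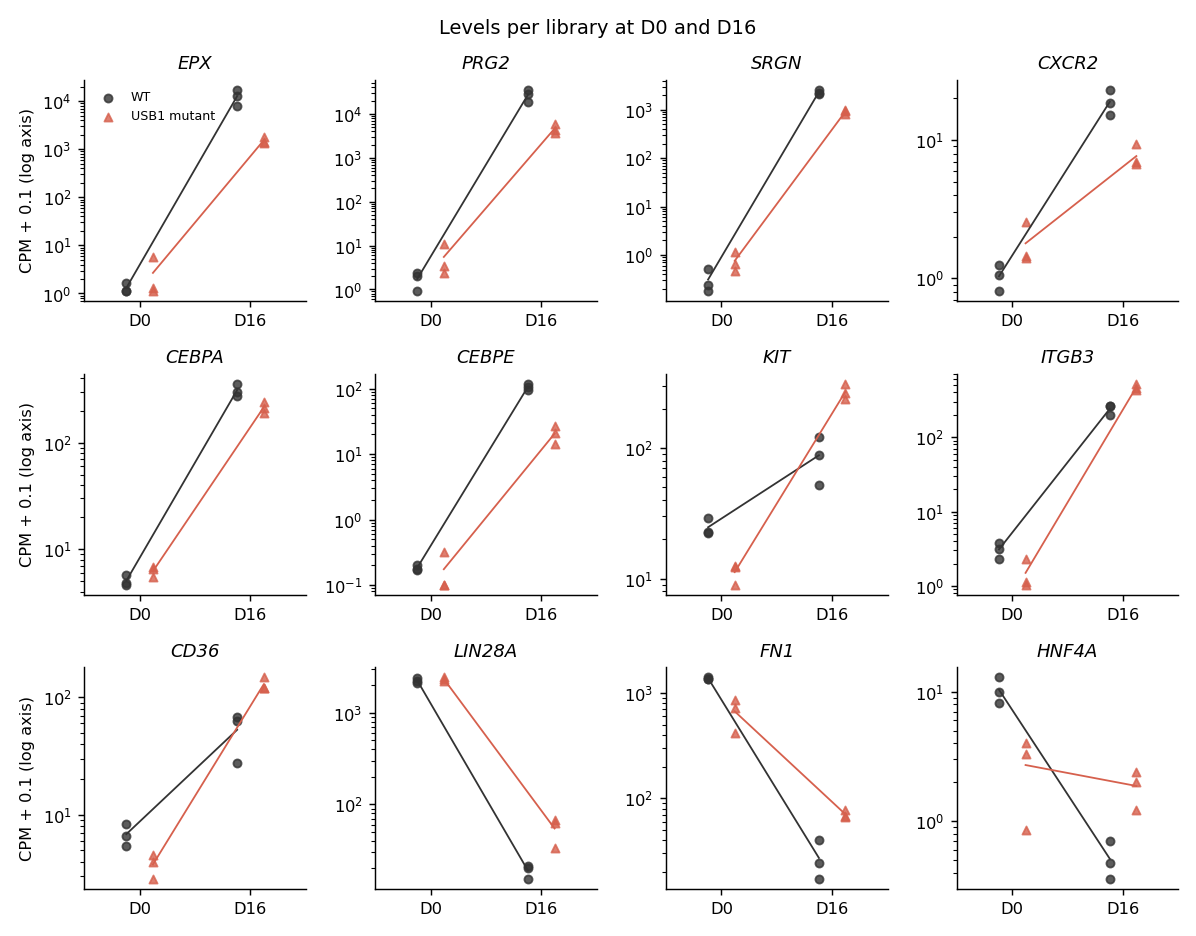
Each panel gives 1 gene, with CPM plus 0.1 on a log axis, D0 and D16 on the horizontal axis, circles for the 3 WT libraries, triangles for the 3 mutant libraries and lines between the group means. EPX ends at 1383 to 1814 CPM in the mutant and at 7929 to 17283 CPM in WT, KIT, ITGB3 and CD36 start lower and end higher in the mutant, and LIN28A and FN1 end higher.

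Neutrophil genes were called in the same direction, at a smaller share of each list. Azurophil granule proteins, made first in neutrophil development, had 2 called of 15, both lower, and a median interaction of −1.92. This number of calls was near the share called in either direction over all genes (12.7%) and over the listed genes (15.7%). Their summed level at D16 was 8022, 10534 and 16520.1 CPM in WT and 5243, 6483 and 7037 CPM in the mutant, with WT replicate 3 highest. Without mutant D0 replicate 3 the list median was −0.88. Proteins of the specific and gelatinase granules, made later, had 5 of 13, with a median of −2.25. Genes of neutrophil function, from chemokine receptors to the oxidase, had 6 of 19, with a median of −1.82. All 13 were called as rising less and none was called higher (6.64% of all genes were called lower). The genotype difference at D16 was called lower for 11, 10 and 14 members of these lists and higher for 1, FPR1, a receptor for bacterial peptides.

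Many neutrophil genes were nearly silent at D0. Both D0 groups held 3 or fewer counts for 6 tested azurophil, 4 specific and 7 function genes. Over all genes there were 400 of this kind: 202 had a called genotype difference at D16 but only 5 a called interaction. ELANE (neutrophil elastase), which lay at 55.1, 86.0 and 163 CPM in WT and at 31.1, 70.6 and 50.4 CPM in the mutant at D16 with 1 count in each genotype at D0, had a D16 difference of −1.004 (adjusted p = 0.0369) and no called interaction (adjusted p = 0.929). A missed call of this kind does not show an equal rise.

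SRGN, the proteoglycan that packs granule contents, rose from 0.0785, 0.135 and 0.422 CPM to 2151, 2243 and 2576 CPM in WT and from 0.375, 0.556 and 1.04 CPM to 985, 958 and 827 CPM in the mutant. The D16 groups did not overlap, and the interaction was −3.13 ± 0.57 (adjusted p = 0.00464), of which −1.33 was the genotype difference at D16. The rest was a D0 difference of 1.80 that was not called (adjusted p = 0.191). It rests on 7 counts in WT and 24 in the mutant. CYBA, the p22phox subunit of the phagocyte oxidase, had an interaction of −0.80 ± 0.18 (adjusted p = 0.0159) on levels of 568, 499.8 and 552 CPM in WT and 289.9, 375 and 317 CPM in the mutant.

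PADI4, which citrullinates histones in neutrophils, rose to 132, 147 and 96.8 CPM in WT and to 48.0, 54.9 and 41.9 CPM in the mutant (interaction −2.39 ± 0.46, adjusted p = 0.00646). CXCR2, an interleukin-8 receptor, rose to 18.4, 23.02 and 15.1 CPM in WT and to 6.84, 6.66 and 9.202 CPM in the mutant (interaction −2.14 ± 0.42, adjusted p = 0.00715). Neither gene differed by a call at D0, although all mutant D0 libraries lay above the WT ones (1.01 and 0.83, adjusted p = 0.416 and 0.404). The D16 differences of PADI4 and CXCR2 were −1.37 and −1.31. CHI3L1, a chitinase-like protein of the specific granule encoded on the long arm of chromosome 1, where mutant levels were lower as a whole (described with the chromosomes), reached 279, 392 and 270.4 CPM in WT and 36.1, 49.8 and 50.6 CPM in the mutant (interaction −2.65 ± 0.69, adjusted p = 0.0297). The CHI3L1 call was lost without mutant D0 3 (adjusted p 0.161). AZU1 (azurocidin) reached 182, 311 and 393 CPM in WT and 12.4, 20.2 and 67.01 CPM in the mutant (interaction −3.18 ± 0.93, adjusted p = 0.0505). The AZU1 call was lost without any 1 of WT D0 1 and mutant D0 1 and 2 (adjusted p 0.104 to 0.124), by limma-voom (0.115), with length offsets (0.129) and without both D0 replicates 1 (0.212).

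For 3 neutrophil genes the rise failed in the mutant. ABCA13, an ABC transporter found in neutrophil granules, went from 1.57, 3.04 and 2.32 to 4.06, 6.63 and 13.5 CPM in WT and from 3.56, 4.91 and 3.57 to 2.88, 1.58 and 2.88 CPM in the mutant (interaction −2.52 ± 0.57, adjusted p = 0.0155). CEACAM8 (CD66b) went from 1.10, 1.35 and 1.05 to 5.07, 5.66 and 3.47 CPM in WT and from 1.69, 1.39 and 1.79 to 1.32, 2.14 and 1.90 CPM in the mutant (interaction −1.86 ± 0.43, adjusted p = 0.017). All WT D16 libraries of both genes lay above the WT D0 ones, while the mutant D16 libraries lay below the mutant D0 ones for ABCA13, a difference that was not called (adjusted p = 0.132), and overlapped them for CEACAM8. FUT4, the enzyme that makes the CD15 sugar, went from 45.7, 48.8 and 49.1 to 81.4, 59.6 and 80.3 CPM in WT and from 49.1, 41.6 and 43.9 to 35.9, 38.1 and 42.3 CPM in the mutant (interaction −0.83 ± 0.18, adjusted p = 0.0141). The CEACAM8 call was lost over all 18 libraries (0.192), with the direction unchanged.

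**Figure D4:**
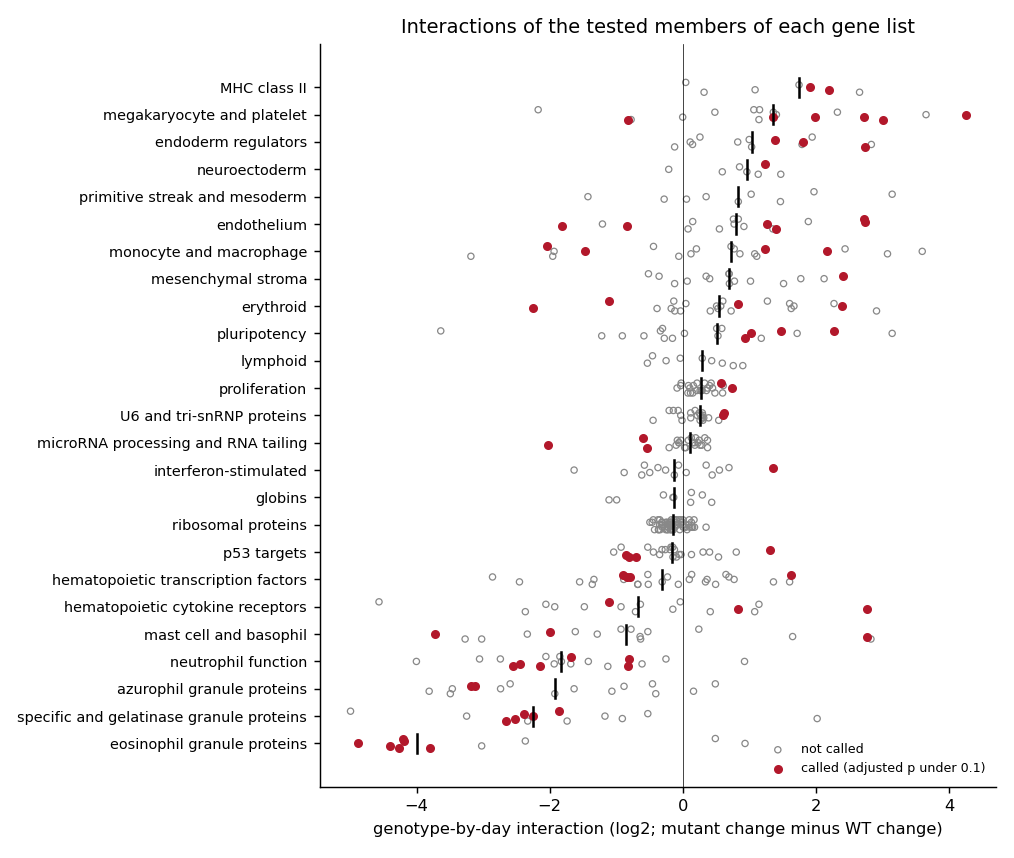
Each row is a gene list, each circle a tested member placed by its interaction (log2, mutant change minus WT change), filled where called, and the bar is the list median. The eosinophil and neutrophil lists lie lowest, with medians of −1.82 to −4.00, and the MHC class II and megakaryocyte lists lie highest, with medians of 1.75 and 1.36.

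Among the blood transcription factors, single genes were called in both directions: CEBPA, CEBPB and MYB rose less and MEIS1 rose further. The list had 1 called higher and 3 called lower of 27 (all genes: 6.07% and 6.64%). The list median was −0.31, or −0.035 without mutant D0 replicate 3. At D16 7 were higher and 10 lower in the mutant (all genes: 15.5% and 16.0%). The share with a called interaction was near that of all genes tested on the lists (15.7%). CEBPA, which commits progenitors to the granulocyte fate, went from 4.71, 4.53 and 5.69 to 357, 299.6 and 274 CPM in WT and from 6.66, 6.40 and 5.36 to 213, 240.4 and 189 CPM in the mutant. The D16 groups did not overlap, and the interaction was −0.84 ± 0.22 (adjusted p = 0.0289). The CEBPA call was lost without both D0 replicates 1 (0.132). CEBPB, which serves granulocyte production under stress, rose to 279.7, 238 and 265 CPM in WT and to 145, 191 and 223 CPM in the mutant (interaction −0.90 ± 0.22, adjusted p = 0.0199).

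CEBPE, the factor of terminal granulocyte maturation, differed at D16 but had no called interaction. It held 3 counts over the WT D0 libraries and 3 over the mutant ones, and at D16 it lay at 119, 106 and 96.3 CPM in WT and at 14.3, 26.5 and 20.6 CPM in the mutant. The D16 difference was −2.38 ± 0.21 (adjusted p = 7.59e-06), while the interaction had an adjusted p of 0.338, and its fitted size rests on those D0 counts. On log2(CPM + 1), where counts near 0 weigh little, the same interaction had an adjusted p of 0.000224 (limma). Without mutant D0 replicate 3 its sign turned (0.77, adjusted p = 0.746).

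RUNX2 lay just outside the threshold. It went from 2.20, 5.13 and 4.85 to 32.7, 24.3 and 12.6 CPM in WT and from 4.03, 3.99 and 3.57 to 10.2, 8.16 and 4.14 CPM in the mutant (interaction −1.55 ± 0.55, adjusted p = 0.103). It passed without WT D16 replicate 3 (0.0224) or without mutant D16 replicate 1 (0.0847), with DESeq2 (0.0386) and under 7 other alternatives, 10 in all. RUNX1, required for blood cells to emerge from endothelium, rose to 508, 479 and 379 CPM in WT and 333, 304 and 249.8 CPM in the mutant, with a called difference at D16 (−0.62, adjusted p = 0.0411) but no called interaction (−0.68 ± 0.33, adjusted p = 0.242). GATA2, a factor of stem and mast cells, rose to 428, 346 and 257 CPM in WT and 326, 339 and 323 CPM in the mutant, and passed neither test (interaction −0.53 ± 0.45, adjusted p = 0.528). CD34 passed neither (interaction 0.50 ± 0.36, adjusted p = 0.453), and without WT D16 replicate 3 its interaction passed (0.0688).

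MEIS1, a partner of HOX proteins in stem cells and megakaryocytes, went from 2.04, 1.49 and 0.949 to 37.4, 51.2 and 60.1 CPM in WT and from 0.375, 1.11 and 1.34 to 96.3, 92.6 and 105 CPM in the mutant (interaction 1.63 ± 0.45, adjusted p = 0.038). The MEIS1 call was lost without WT D0 1 (adjusted p 0.133), with length offsets (0.186), with lengths in DESeq2 (0.407) and without both D0 replicates 1 (0.236). MYB, which keeps progenitors dividing, reached 375, 389 and 329 CPM in WT and 213, 215 and 198 CPM in the mutant (interaction −0.79 ± 0.24, adjusted p = 0.0616). The MYB call was lost without any 1 of WT D0 2 and 3, mutant D0 2 and 3, WT D16 1 and 2 and mutant D16 3 (adjusted p 0.107 to 0.233), by limma-voom (0.119) and over all 18 libraries (0.245).

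The stem cell factor receptor KIT rose further in the mutant. KIT lay at 29.2, 22.6 and 22.1 CPM in WT and at 8.82, 12.4 and 12.1 CPM in the mutant at D0, and at 52.3, 123 and 88.9 and 312, 264 and 236 CPM at D16. The groups did not overlap at either day, and the mutant changed from lower (−1.15, adjusted p = 0.0482) to higher (1.61, adjusted p = 0.000265). The interaction was 2.76 ± 0.35 (adjusted p = 0.000452). EPOR, the erythropoietin receptor, rose less, to 39.8, 42.6 and 29.7 CPM in WT and 23.1, 30.4 and 26.5 CPM in the mutant (interaction −1.10 ± 0.25, adjusted p = 0.014). The EPOR call was lost over all 18 libraries (0.149). IL6ST (gp130) rose further (0.82 ± 0.23, adjusted p = 0.0394). The IL6ST call was lost without mutant D0 3 (adjusted p 0.112), with length offsets (0.617) and with lengths in DESeq2 (0.676). The receptor list had 2 called higher and 1 lower of 16 (all genes: 6.07% and 6.64%). Its median was −0.67, or −0.070 without mutant D0 replicate 3. At D16 9 of the receptors, CSF3R, CSF2RA, CSF2RB, IL3RA and IL5RA included, were lower and 5 were higher (all genes: 16.0% and 15.5%).

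Genes of mast cells and basophils were split. KIT is counted there too, and of the other members LTC4S (leukotriene C4 synthase) rose less, to 175, 167 and 111 CPM in WT and 40.5, 53.4 and 35.3 CPM in the mutant (interaction −2.002 ± 0.50, adjusted p = 0.0247), a call lost over all 18 libraries (0.123). The tryptases TPSAB1 and TPSB2 were higher in the mutant at D16 (1.30 and 1.22) and the high affinity IgE receptor subunit FCER1A was lower (−3.27), none of them with a called interaction. ENPP3 (CD203c) rose to 12.2, 9.82 and 6.71 CPM in WT and 2.97, 2.69 and 1.62 CPM in the mutant from 1 count in WT and 4 in the mutant at D0, so its fold is not given (adjusted p = 0.0733). The ENPP3 call was lost without any 1 of WT D0 1 and 3, mutant D0 1, 2 and 3 and WT D16 1 and 2 (adjusted p 0.109 to 0.229) and without both D0 replicates 1 (0.207). Of 16 members 1 was called higher and 2 lower (all genes: 6.07% and 6.64%, list median −0.85).

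Megakaryocyte and platelet genes were mostly higher in the mutant at D16. Of 17 tested members 3 were called as rising further, 2 as rising where the WT change was not called, and 1, MYL9, as falling further (median 1.36, or 1.02 with groups under 3 counts set to 3, 6.07% of all genes were called higher), and 15 were higher in the mutant at D16 (15.5% of all genes). Their summed level at D16 was 1232, 1329 and 1244 CPM in WT and 1896, 1985 and 2057 CPM in the mutant. ITGB3, the β3 integrin of platelets, lay at 3.06, 2.23 and 3.69 CPM in WT and 1.03, 0.927 and 2.23 CPM in the mutant at D0. At D16 it lay at 200, 261 and 261 CPM in WT and 436, 454 and 525 CPM in the mutant, and the interaction was 1.98 ± 0.36 (adjusted p = 0.00419). LTBP1, which binds latent TGF-β, went from 63.2, 56.5 and 64.2 to 81.2, 98.2 and 97.5 CPM in WT and from 50.9, 56.8 and 55.7 to 216, 219 and 199 CPM in the mutant (interaction 1.36 ± 0.15, adjusted p = 0.000369).

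VWF, von Willebrand factor of platelets and endothelium, had no called change in WT (3.22, 2.50 and 3.59 CPM at D0, 3.80, 4.68 and 4.52 CPM at D16) but rose in the mutant from 0.188, 1.11 and 1.34 to 6.92, 9.59 and 9.202 CPM. The genotypes were separate at both days in opposite directions, and the interaction was 2.73 ± 0.51 (adjusted p = 0.00531). GP1BA, a subunit of the receptor for VWF, held 0 counts in the mutant D0 libraries, so that no fold of its rise is given, and lay at 10.6, 13.2 and 12.1 CPM in WT and 29.9, 24.2 and 22.9 CPM in the mutant at D16 (D16 difference 1.09 ± 0.19, adjusted p = 0.00175). Its interaction had an adjusted p of 0.0904. The GP1BA call was lost without any 1 of WT D0 1 and 2, mutant D0 1, 2 and 3, WT D16 1 and 2 and mutant D16 1 (adjusted p 0.106 to 0.343), without a count filter (0.116), by DESeq2 (0.118), over all 18 libraries (0.204), with length offsets (0.116), with lengths in DESeq2 (0.146), with the replicate block (0.101), with the block within day (0.113) and without both D0 replicates 1 (0.215).

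Endothelial genes had 4 called higher and 2 lower of 16 (all genes: 6.07% and 6.64%, list median 0.80). TEK, the angiopoietin receptor, fell in both genotypes, from 57.9, 47.9 and 49.8 to 1.77, 1.82 and 2.79 CPM in WT and from 57.1, 61.8 and 62.7 to 5.35, 5.63 and 7.09 CPM in the mutant (interaction 1.26 ± 0.24, adjusted p = 0.00628). EGFL7, a secreted vascular protein, rose less (interaction −0.83 ± 0.25, adjusted p = 0.0538). The EGFL7 call was lost without any 1 of WT D0 1 and 2, mutant D0 3, WT D16 1 and mutant D16 1 and 3 (adjusted p 0.107 to 0.145), over all 18 libraries (0.119), with length offsets (0.177), with lengths in DESeq2 (0.136) and without both D0 replicates 1 (0.116).

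Erythroid genes had 2 called higher and 2 lower of 22 (all genes: 6.07% and 6.64%, list median 0.55). KEL, the Kell blood group protein, went from 6.75, 5.34 and 3.69 to 13.6, 14.4 and 13.7 CPM in WT and from 0.281, 3.15 and 2.38 to 22.9, 27.4 and 30.7 CPM in the mutant (interaction 2.39 ± 0.53, adjusted p = 0.0143). CA2, carbonic anhydrase 2, rose from 19.9, 14.4 and 13.8 to 32.7, 25.2 and 28.7 CPM in WT and fell from 13.4, 10.9 and 14.0 to 7.41, 3.25 and 3.86 CPM in the mutant (interaction −2.25 ± 0.35, adjusted p = 0.00186). CA2 is thus a gene whose rise turned into a fall, with separate groups at D16 and overlap at D0. SPTB, erythroid spectrin, rose further (0.83 ± 0.25, adjusted p = 0.0548). The SPTB call was lost without any 1 of WT D0 2 and 3, mutant D0 1 and 3, WT D16 1 and 2 and mutant D16 3 (adjusted p 0.101 to 0.129), over all 18 libraries (0.524) and with length offsets (0.118).

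None of the 9 tested globins was called by edgeR, DESeq2 or limma-voom or had an unadjusted p under 0.05 (median −0.14). HBA2 lay at 13.1, 29.1 and 48.2 CPM in WT and 28.1, 30.5 and 84.2 CPM in the mutant at D16 (interaction −0.99 ± 0.88, adjusted p = 0.551), although it is nearly identical to HBA1. HBG1, which shares sequence with HBG2 and held 0 counts in the WT D0 libraries, had an adjusted p of 0.66.

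Monocyte and macrophage genes had 2 called in each direction of 19 (all genes: 6.07% higher and 6.64% lower). The list median was 0.72, from 0.20 without WT D0 replicate 2 to 1.11 without mutant D0 replicate 1. CD36, a scavenger receptor that platelets and erythroid progenitors also carry, went from 8.32, 6.55 and 5.38 to 27.5, 62.5 and 68.5 CPM in WT and from 4.41, 3.89 and 2.75 to 148, 119 and 120.1 CPM in the mutant (interaction 2.17 ± 0.42, adjusted p = 0.00646). CD68, a lysosomal protein, rose less (−1.48 ± 0.39, adjusted p = 0.0337), as did ITGAX (CD11c, −2.05 ± 0.70, adjusted p = 0.0884), and LGMN, a lysosomal protease, fell less (1.24 ± 0.34, adjusted p = 0.0369). The CD68 call was lost without WT D0 2 (adjusted p 0.112) and by limma-voom (0.120). The LGMN call was lost without WT D16 2 (adjusted p 0.105), with length offsets (0.216), with lengths in DESeq2 (0.172) and without both D0 replicates 1 (0.123). The ITGAX call was lost without any 1 of WT D0 1 and 2, mutant D0 2 and 3, WT D16 1 and 2 and mutant D16 1 and 3 (adjusted p 0.107 to 0.286), by limma-voom (0.260), over all 18 libraries (0.107), with length offsets (0.175) and without both D0 replicates 1 (0.155).

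All 7 tested MHC class II genes were higher in the mutant at D16 (all genes: 15.5%), of which 2 had a called interaction, both higher (all genes: 6.07%, list median 1.75). CIITA, their master regulator, rose from 1.73, 1.76 and 1.05 to 12.4, 16.2 and 28.1 CPM in WT and from 0.844, 1.21 and 1.34 to 43.4, 64.0 and 85.6 CPM in the mutant (interaction 2.19 ± 0.56, adjusted p = 0.027). The CIITA call was lost by limma-voom (0.115), over all 18 libraries (0.235), with length offsets (0.125) and without both D0 replicates 1 (0.150). HLA-DPB1 lay below 8 CPM in each library (interaction 1.91 ± 0.63, adjusted p = 0.0773). The HLA-DPB1 call was lost without any 1 of WT D0 1 and 3, mutant D0 1 and 3, WT D16 1 and 2 and mutant D16 2 and 3 (adjusted p 0.111 to 0.181), over all 18 libraries (0.372), with length offsets (0.139), with lengths in DESeq2 (0.115) and without both D0 replicates 1 (0.246). None of the 9 lymphoid genes was called by edgeR, DESeq2 or limma-voom or had an unadjusted p under 0.05 (median 0.29): CD79B, of the B cell receptor, and RAG1, the recombinase, had the smallest p, with interactions of 0.76 ± 0.47 and −0.53 ± 0.43 (adjusted p = 0.366 and 0.508). Among 15 interferon-stimulated genes OAS3 rose further (1.35 ± 0.32, adjusted p = 0.0207, list median −0.13). The OAS3 call was lost with length offsets (0.129) and without both D0 replicates 1 (0.107).

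Of the genes shut off on leaving the pluripotent state, LIN28A fell less in the mutant, while POU5F1 and NANOG had no called interaction. POU5F1 fell from 729, 677 and 738 to 3.68, 5.72 and 4.98 CPM in WT and from 786, 777 and 897 to 4.04, 5.47 and 5.62 CPM in the mutant, and the interaction was −0.16 ± 0.22 (adjusted p = 0.735). NANOG was at −0.58 ± 0.33 (adjusted p = 0.321), and its interaction passed without mutant D16 replicate 3 (0.0274). LIN28A, a repressor of let-7 miRNA maturation, fell from 2378, 2251 and 2141 to 19.9, 21.3 and 15.3 CPM in WT and from 2227, 2434 and 2366 to 67.9, 62.5 and 33.1 CPM in the mutant. Both falls were large, the D16 groups did not overlap, and the interaction was 1.48 ± 0.29 (adjusted p = 0.00715). The LIN28A call was lost over all 18 libraries (0.136).

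In all, 4 of 19 pluripotency genes were called, each falling less (all genes: 4.37%). The list median was 0.51, or 0.025 with groups under 3 counts set to 3. GDF3, a NODAL-related ligand, fell from 10.3, 4.26 and 4.01 to 0.634, 1.04 and 1.28 CPM in WT and failed to fall in the mutant (1.501, 3.15 and 2.46 against 1.98, 1.98 and 1.76 CPM, interaction 2.28 ± 0.58, adjusted p = 0.0281). The GDF3 call was lost without both D0 replicates 1 (0.103). DNMT3B, the de novo DNA methyltransferase, and TERT, the telomerase catalytic subunit, fell less (0.94 ± 0.32 and 1.02 ± 0.36, adjusted p = 0.0891 and 0.0982). The DNMT3B call was lost without any 1 of WT D0 1, 2 and 3, mutant D0 1, 2 and 3, WT D16 1 and 2 and mutant D16 1 and 3 (adjusted p 0.112 to 0.203), over all 18 libraries (0.189), with length offsets (0.105) and without both D0 replicates 1 (0.246). The TERT call was lost without any 1 of WT D0 2 and 3, mutant D0 1, 2 and 3, WT D16 1 and 2 and mutant D16 2 and 3 (adjusted p 0.123 to 0.206), with RLE scaling (0.102), with TMM computed without globins and top genes (0.106), by limma-voom (0.116), over all 18 libraries (0.128), with length offsets (0.311), with lengths in DESeq2 (0.280), without 1q (0.104) and without both D0 replicates 1 (0.160).

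Endoderm regulators differed mainly at D0. These factors set up the gut and yolk sac lineages and are low in undifferentiated hESCs, and 10 of 13 were lower in the mutant at D0 (1.23% of all genes were called lower at D0), while 1 was higher and 2 were lower at D16. SOX17 lay at 17.1, 22.7 and 18.03 CPM in WT and at 2.72, 8.71 and 6.10 CPM in the mutant at D0 and fell below 1 CPM in both by D16 (interaction 2.73 ± 0.66, adjusted p = 0.0216). HHEX, which also serves blood, was lower at D0 (2.75, 1.96 and 2.11 against 0.844, 1.21 and 0.595 CPM) and overlapped WT at D16 (28.8, 34.2 and 38.2 against 33.3, 34.9 and 33.0 CPM), so it rose further in the mutant (interaction 1.38 ± 0.32, adjusted p = 0.0161). PRDM1 (BLIMP1) was lower at D0 (11.9, 11.6 and 8.86 against 3.85, 6.30 and 4.76 CPM) and higher at D16 (13.9, 20.9 and 21.9 against 28.3, 24.3 and 38.9 CPM), with an interaction of 1.80 ± 0.33 (adjusted p = 0.00464). The list median was 1.03, or 1.69 with groups under 3 counts set to 3, 1.61 without mutant D0 replicate 2 and 1.79 without WT D16 replicate 3, and 3 members were called higher.

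HNF4A, a nuclear receptor of endoderm and liver, was not on the list. It lay at 8.09, 9.86 and 12.8 CPM in WT and 0.750, 3.89 and 3.20 CPM in the mutant at D0, and at 0.380, 0.260 and 0.603 and 1.89, 2.30 and 1.12 CPM at D16. The WT fall failed in the mutant (interaction 4.02 ± 0.71, adjusted p = 0.00386). FN1 (fibronectin), the 1 called gene of 15 in the stroma list (median 0.70), fell from 1369, 1403 and 1368 to 17.1, 24.4 and 39.8 CPM in WT and from 420, 865 and 721 to 67.5, 66.2 and 77.4 CPM in the mutant (interaction 2.41 ± 0.37, adjusted p = 0.00164). It too was lower at D0 and higher at D16 in the mutant.

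None of the 9 primitive streak and mesoderm genes was called by edgeR (median 0.83), while 2 had an unadjusted p under 0.05, DESeq2 called 2 and limma-voom 1. KDR, the VEGF receptor, had 0.83 ± 0.31 (adjusted p = 0.121), and FGF17 lay at 23.2, 27.8 and 26.8 CPM in WT and 2.81, 6.12 and 6.32 CPM in the mutant at D0 and below 0.25 CPM at D16 (adjusted p = 0.19, 0.0864 by DESeq2 and 0.0938 by limma-voom). KDR passed without WT D0 replicate 3 (0.0551) or WT D16 replicate 3 (0.0729), with DESeq2 (0.0783) and without a count filter (0.0530). Of 7 neuroectoderm genes (median 0.96, or 0.62 with groups under 3 counts set to 3) NES, an intermediate filament gene on the long arm of chromosome 1, fell less, to 3.04, 2.99 and 3.02 CPM in WT and 6.67, 7.69 and 5.97 CPM in the mutant (interaction 1.24 ± 0.23, adjusted p = 0.00491).

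USB1 itself had no called difference at either day and no called interaction. It lay at 75.0, 81.2 and 87.1 CPM in WT and 85.6, 87.2 and 90.2 CPM in the mutant at D0 and at 62.2, 51.8 and 60.9 and 57.1, 47.9 and 58.7 CPM at D16 (interaction −0.21 ± 0.16, adjusted p = 0.488). A frameshift need not lower the mRNA, and these levels thus say nothing of the edit, while ZNF319 overlaps USB1 on the other strand. PARN, a deadenylase that acts on miRNAs and telomerase RNA, was the firmest call among the genes of small RNA processing. It lay at 38.2, 46.1 and 35.9 CPM in WT and 12.7, 40.9 and 43.5 CPM in the mutant at D0, and at 33.7, 41.5 and 43.6 and 8.24, 7.85 and 7.52 CPM at D16. The groups were far apart at D16, and mutant D0 replicate 1 alone was low at D0 (interaction −2.03 ± 0.44, adjusted p = 0.0125). AGO4 and TUT7, an Argonaute and a terminal uridylyltransferase, were called at −0.60 ± 0.19 and −0.54 ± 0.19 (adjusted p = 0.0736 and 0.0998), so 3 of 24 were lower and none higher (median 0.11). Over all genes 12.7% were called in either direction (6.64% lower), near the share of this list. By limma-voom 1 of the 24 was called. The AGO4 call was lost without any 1 of WT D0 1, 2 and 3, mutant D0 3, WT D16 1 and 2 and mutant D16 1 and 3 (adjusted p 0.103 to 0.197), by limma-voom (0.110), over all 18 libraries (0.158) and without both D0 replicates 1 (0.144). The TUT7 call was lost without any 1 of WT D0 2 and 3, mutant D0 1, 2 and 3, WT D16 1 and 2 and mutant D16 2 and 3 (adjusted p 0.111 to 0.216), without a count filter (0.113), by limma-voom (0.111), over all 18 libraries (0.121), with length offsets (0.228), with lengths in DESeq2 (0.187), without 1q (0.1) and without both D0 replicates 1 (0.178).

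Proteins of the U6 particle and the tri-snRNP had 2 called higher of 23 (all genes: 6.07%, list median 0.26), and 13 were higher in the mutant at D16 (all genes: 15.5%). PRPF3, a U4/U6 protein encoded on the long arm of chromosome 1, went from 75.2, 69.9 and 64.4 to 49.4, 51.7 and 61.1 CPM in WT and from 69.7, 61.2 and 64.7 to 76.9, 80.04 and 75.5 CPM in the mutant, a fall in WT and a rise in the mutant (interaction 0.62 ± 0.16, adjusted p = 0.0266). SSB (La), which binds the U tail of new U6, was called at 0.61 ± 0.18 (adjusted p = 0.0551). The SSB call was lost without any 1 of WT D0 1 and 2, mutant D0 2 and 3, WT D16 1 and 2 and mutant D16 1 (adjusted p 0.105 to 0.145), with length offsets (0.102) and without both D0 replicates 1 (0.117).

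Proliferation genes had 2 called higher of 25 (all genes: 6.07%, list median 0.28) and 13 higher at D16 (all genes: 15.5%). CCNA2 and CCNE1, the cyclins of S phase and of its entry, were called at 0.58 ± 0.18 and 0.73 ± 0.26 (adjusted p = 0.0576 and 0.0977). The CCNA2 call was lost without any 1 of WT D0 1 and 2, mutant D0 2 and 3, WT D16 1 and 2 and mutant D16 1 (adjusted p 0.115 to 0.142), with length offsets (0.1003) and without both D0 replicates 1 (0.137). The CCNE1 call was lost without any 1 of WT D0 1, 2 and 3, mutant D0 1, 2 and 3, WT D16 1 and 2 and mutant D16 1, 2 and 3 (adjusted p 0.113 to 0.204), with RLE scaling (0.104), with TMM computed without globins and top genes (0.103), over all 18 libraries (0.136), with length offsets (0.251), with lengths in DESeq2 (0.239), without 1q (0.105) and without both D0 replicates 1 (0.281).

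Of 24 p53 targets 1 was called higher and 3 lower (all genes: 6.07% and 6.64%, list median −0.17). At D0 4 were higher in the mutant (0.506% of all genes were called higher at D0). CDKN1A (p21), a brake on the cell cycle, was called higher at D0 and not at D16. It lay at 29.0, 22.4 and 23.8 CPM in WT and 46.9, 39.6 and 45.5 CPM in the mutant at D0 and at 161, 137 and 126 and 147, 142 and 133 CPM at D16 (interaction −0.81 ± 0.18, adjusted p = 0.0135). The CDKN1A call was lost with length offsets (0.112). TP53INP1, a p53 cofactor, rose less, to 196, 187 and 128 CPM in WT and 91.7, 93.4 and 91.3 CPM in the mutant (interaction −0.85 ± 0.21, adjusted p = 0.0207). TIGAR, a regulator of glycolysis, fell less (1.30 ± 0.28, adjusted p = 0.0113), and PHLDA3, an AKT inhibitor on the long arm of chromosome 1, fell further (−0.70 ± 0.21, adjusted p = 0.0538). The PHLDA3 call was lost without any 1 of WT D0 1 and 2, mutant D0 3, WT D16 1 and mutant D16 3 (adjusted p 0.104 to 0.125), over all 18 libraries (0.127), with length offsets (0.209), with lengths in DESeq2 (0.173) and without both D0 replicates 1 (0.154).

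None of the 63 ribosomal protein genes was called by edgeR (median −0.14), while 3 had an unadjusted p under 0.05, DESeq2 called 1 and limma-voom 0. RPLP1 and RPLP2, of the ribosomal stalk, had the smallest p (interactions −0.50 ± 0.19 and −0.44 ± 0.19, adjusted p = 0.135 and 0.18). RPLP1 passed with the replicate block within day (0.0297), with DESeq2 (0.0748), without WT D16 replicate 3 (0.0991) and without mutant D16 replicate 2 (0.0490), and RPLP2 with the block within day (0.0430) and without mutant D16 replicate 2 (0.0986). None of the 11 HOXA genes had enough counts to be tested.

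The largest interactions outside the lists were of mixed reliability. COL2A1, a cartilage collagen, had no called change in WT (2.35, 3.85 and 4.96 CPM at D0, 2.41, 4.10 and 6.18 CPM at D16) but rose in the mutant from 1.78, 3.06 and 2.68 to 26.2, 42.2 and 20.9 CPM (interaction 3.32 ± 0.51, adjusted p = 0.00174). DPP4 (CD26), a surface peptidase, had 5.49, 5.61 and 7.17 CPM in WT and 0.844, 2.04 and 2.68 CPM in the mutant at D0, and 2.28, 5.92 and 6.33 and 12.2, 10.6 and 10.8 CPM at D16 (interaction 2.85 ± 0.50, adjusted p = 0.0036). LEF1, a Wnt effector, rose in the mutant with no called change in WT, to 7.33, 4.83 and 4.99 CPM against 2.15, 1.24 and 3.09 CPM in WT (interaction 3.04 ± 0.71, adjusted p = 0.0179). The LEF1 call was lost without both D0 replicates 1 (0.119).

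COL17A1 and THSD7A fell in the mutant while the WT change was not called. COL17A1, a collagen of epithelial anchoring, went from 7.61, 5.34 and 9.39 to 5.20, 7.61 and 5.73 CPM in WT and from 13.8, 5.38 and 7.37 to 0.741, 1.11 and 1.19 CPM in the mutant (interaction −2.85 ± 0.50, adjusted p = 0.0036). THSD7A, a membrane protein of endothelium and podocytes, went from 8.32, 9.39 and 6.85 to 13.2, 12.1 and 6.26 CPM in WT and from 15.7, 12.8 and 14.7 to 3.38, 2.14 and 2.32 CPM in the mutant (interaction −2.80 ± 0.38, adjusted p = 0.000691). PDE1C, a phosphodiesterase, was at −2.65 ± 0.50 (adjusted p = 0.00531). PCDHA6, whose last exons are common to the whole protocadherin α cluster, was higher in the mutant at D0 alone (1.88, 2.03 and 2.21 against 15.9, 17.98 and 18.5 CPM, interaction −2.74 ± 0.29, adjusted p = 0.000303), and its reads can belong to its neighbours.

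CD177, a neutrophil surface protein, fell further in the mutant. It went from 32.6, 26.6 and 26.7 to 20.2, 21.0 and 8.75 CPM in WT and from 14.4, 21.6 and 19.3 to 0.330, 0.792 and 0.843 CPM in the mutant (interaction −3.99 ± 0.48, adjusted p = 0.000403). The amino acid transporter SLC6A15, the heparan sulfotransferase HS3ST5 and the protease PAPPA2 held 1, 0 and 1 counts over the 3 mutant D16 libraries against 51, 37 and 20 in WT, and no fold is given for them (adjusted p = 0.000403, 0.00154 and 0.00908). The HS3ST5 call was lost with length offsets (0.106). The PAPPA2 call was lost with length offsets (0.152) and by limma on log2(CPM + 1) (0.303). EMX1, a cortical homeobox factor, held 4 WT and 0 mutant counts at D16 (adjusted p = 0.076). The EMX1 call was lost without any 1 of WT D0 1, mutant D0 1 and 3, WT D16 2 and 3 and mutant D16 1, 2 and 3 (adjusted p 0.1002 to 0.180), with length offsets (0.165), with lengths in DESeq2 (0.169) and without both D0 replicates 1 (0.133).

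Of the genes that rose further, ACP3 (prostatic acid phosphatase) went from 0.863, 0.676 and 0.316 to 16.5, 20.02 and 24.4 CPM in WT and from 0.0938, 0.185 and 0.0744 to 28.2, 28.1 and 29.0 CPM in the mutant (interaction 2.86 ± 0.57, adjusted p = 0.00752). TUBA8, an α-tubulin, was at 2.87 ± 0.65 (adjusted p = 0.016, 4.55 without mutant D0 replicate 2), STYXL2, a phosphatase-like gene on the long arm of chromosome 1, at 4.28 ± 0.95 (adjusted p = 0.0137) and AMHR2, the receptor of anti-Müllerian hormone, at 3.23 ± 0.86 (adjusted p = 0.0345). The AMHR2 call was lost without WT D0 1 (adjusted p 0.140), with length offsets (0.177), with lengths in DESeq2 (0.108) and without both D0 replicates 1 (0.216).

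Several of the largest values came from genes whose libraries disagreed within a group or whose reads can be shared with a near copy. B3GALT4, a galactosyltransferase gene in the MHC region of chromosome 6, lay at 15.1, 15.3 and 11.7 CPM in WT and at 0.0824, 0.0792 and 0.211 CPM in the mutant at D16, after 1.73, 2.70 and 1.69 and 2.16, 1.48 and 1.86 CPM at D0 (interaction −6.49 ± 0.50, adjusted p = 1.82e-05). ATF6B, also in that region and overlapping TNXB, rose in the mutant to 21.9, 46.9 and 40.3 CPM against 8.62, 9.49 and 9.28 CPM in WT (interaction 3.00 ± 0.53, adjusted p = 0.00365). This region has alternate copies in the genome assembly, and whether reads were divided between them was not tested. GPSM3, in the same region, and the pseudogene RPL22P1 had 0 and 0 counts in WT D0 against 55 and 180 in the mutant (adjusted p = 0.0117 and 0.000602). NANOGP8, a near copy of NANOG, lay at 10.2, 13.2 and 14.3 CPM in WT and at 0, 0 and 0.298 CPM in the mutant at D0 and at or below 0.302 CPM in both at D16 (adjusted p = 0.00998).

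CDK7, TAF15, TAS2R14 and HAS2 changed abruptly between libraries of 1 group or held a group at 0. CDK7, of the general transcription machinery, lay at 4.55, 22.1 and 26.3 CPM in WT and 0.750, 1.02 and 1.71 CPM in the mutant at D0 and at 0.507, 2.21 and 2.04 and 21.0, 0.792 and 16.3 CPM at D16 (interaction 6.77 ± 1.24, adjusted p = 0.00476). The CDK7 call was lost by limma-voom (0.109). TAF15, an RNA-binding protein, had 10.3, 0.325 and 11.2 CPM in WT and 0.330, 12.8 and 0.281 CPM in the mutant at D16 (adjusted p = 0.0622). The TAF15 call was lost without any 1 of WT D0 1, mutant D0 1, 2 and 3 and mutant D16 2 (adjusted p 0.108 to 0.667), by limma-voom (0.196), over all 18 libraries (0.107), with the block within day (0.151) and without both D0 replicates 1 (0.190). TAS2R14, a bitter taste receptor within PRH1, had 0 counts in WT D16 (adjusted p = 0.0599), and HAS2, a hyaluronan synthase, had 0 there against 8 in the mutant (adjusted p = 0.0745). The TAS2R14 call was lost without any 1 of WT D0 1, WT D16 1 and 2 and mutant D16 1 (adjusted p 0.104 to 0.134), by limma-voom (0.175), over all 18 libraries (0.149) and without both D0 replicates 1 (0.1004). The HAS2 call was lost without any 1 of mutant D0 3, WT D16 1, 2 and 3 and mutant D16 1, 2 and 3 (adjusted p 0.107 to 0.173), with the replicate block (0.110) and with the block within day (0.156).

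The blood cell genes CD37 and CD244 and the pseudogene ACAA2P1 had no count in WT D0, so that no fold of rise is given. At D16 CD37, a tetraspanin, lay at 109, 105 and 63.0 CPM in WT and 43.99, 43.6 and 30.0 CPM in the mutant, and CD244 (2B4), on the long arm of chromosome 1, at 84.9, 73.9 and 54.6 and 20.2, 16.3 and 13.9 CPM. Both were lower in the mutant at D16 (−1.23 and −2.08, adjusted p = 0.00166 and 3.79e-05), with interaction calls at 0.0716 and 0.0944, and ACAA2P1 at 0.0651. The CD37 call was lost without any 1 of WT D0 1, 2 and 3 and mutant D0 3 (adjusted p 0.105 to 0.286), over all 18 libraries (0.149), with length offsets (0.169) and without both D0 replicates 1 (0.155). The CD244 call was lost without any 1 of WT D0 1, 2 and 3, mutant D0 1 and 2, WT D16 1 and 2 and mutant D16 1, 2 and 3 (adjusted p 0.1003 to 0.320), over all 18 libraries (0.135), with length offsets (0.132) and without both D0 replicates 1 (0.256). The ACAA2P1 call was lost without any 1 of WT D0 1 and 2 and mutant D0 1 and 3 (adjusted p 0.112 to 0.138) and without both D0 replicates 1 (0.206).

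Genes of the long arm of chromosome 1 were lower in the mutant as a whole, and more so at D16. Over 759 tested genes the median genotype difference was −0.18 at D0 and −0.48 at D16, and the median interaction was −0.27. Over the 15452 other genes these medians were 0.0082, 0.027 and 0.031. At D0 78.1% and at D16 79.7% of the genes of this arm were lower in the mutant, against 47.6% and 46.4% elsewhere. The interaction was called for 22.5% of them, 35 higher and 136 lower, against 12.2% elsewhere. The short arm and the other 22 chromosomes had median interactions between −0.045 and 0.12 and called shares between 9.49% and 16.2%. Interactions of genes on this arm that are negative (CHI3L1, PHLDA3, PAPPA2, CD244) thus run with the arm, and those that are positive (NES, PRPF3, STYXL2) run against it. The part of the arm in any one of them was not tested. Apart from the genes marked above, exons of EPOR and RGL3, and of TIGAR and an unnamed gene, overlap on the same strand, and those of CIITA and DEXI, HLA-DPB1 and HLA-DPA1, SPTB and PLEKHG3, GP1BA and CHRNE, TP53INP1 and NDUFAF6, CCNA2 and EXOSC9, SSB and METTL5, and CD37 and TEAD2 overlap on opposite strands (GENCODE 44), so their counts are less certain.

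**Figure D5:**
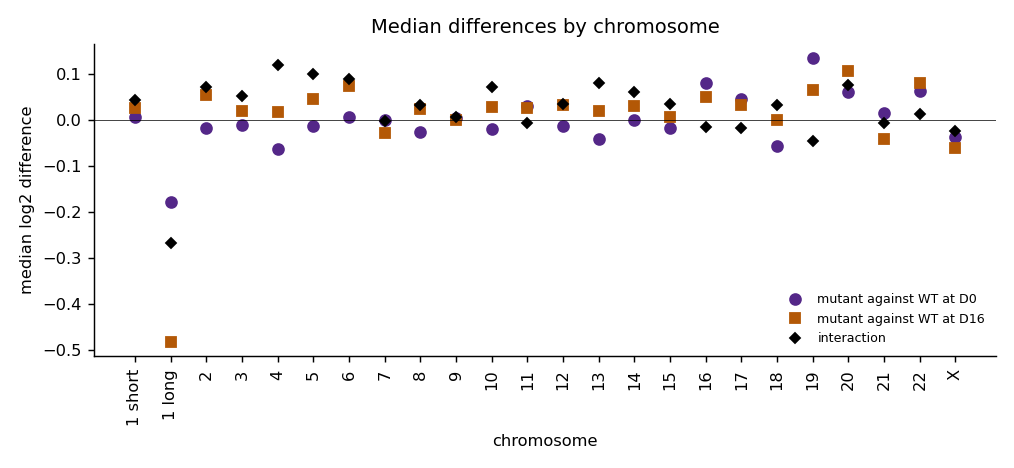
For each chromosome, with chromosome 1 split into its arms, the plot gives the median log2 difference between mutant and WT at D0 (circles) and D16 (squares) and the median interaction (diamonds) over its tested genes. The long arm of chromosome 1 lies apart at −0.18, −0.48 and −0.27, while the other medians at D16 lie between −0.060 and 0.11.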

How the data were processed

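RNA-seq was analysed for 12 libraries of H1 cells at D0 and D16, 3 for each of 4 groups taken from the sample titles. Libraries were depleted of rRNA with RiboCop, made with a strand-specific kit and sequenced in pairs of reads. The authors trimmed reads with Trimmomatic 0.36, quantified transcripts with Salmon 0.13.1 against Ensembl GRCh38 cDNA of release 99 and deposited the estimated counts per gene (expected counts, not whole) with average transcript lengths. Strand use by Salmon and separate cultures are not given in the sources used here. The deposited abundance columns were not used.

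Counts were rounded to whole numbers, and the 35168 identifiers of both days were joined by gene identifier, of which 35051 matched GENCODE 44 symbols and the other 117 held 0.240% of counts. Genes were kept by filterByExpr and scaled by TMM, and 4 group means were fitted with edgeR 4.0.16 (R 4.3.3, quasi-likelihood test, Benjamini-Hochberg adjusted p under 0.1). The interaction is the mutant minus WT difference at D16 less that at D0. A gene whose mutant change was not called, or was called in the opposite direction to WT, was said to fail to rise or to fall. On simulated counts of these libraries the fit recovered 64% of genes given a 2-fold and 95% of genes given a 4-fold interaction. The simulated spread followed the trend with level alone, with no gene-specific part and no replicate standing apart. Recovery in the real libraries may thus be lower. The changed genes were drawn from those averaging at least 5 CPM, so the recovery of genes with fewer counts was not measured. Biological variation was 0.153 (common coefficient), and depth was 8901471 to 17536723 counts a library, so genes with few counts at D0 have wide errors. Pairs of replicates differed by more than sampling noise (chi-square per degree of freedom of 3.47 or more), so none was treated as a copy of another. All were counted as separate libraries, which does not show that they came from separate cultures.

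The members and the 26 gene lists were chosen with earlier results of these data known. Named genes were up to 4 called members of each list with the smallest adjusted p (2 where none was called), the 6 largest called interactions of each direction class over 2-fold (4 a direction where the WT change was not called) with a group mean of at least 5 CPM and genotypes apart at D0 or D16, and USB1, CEBPA, CEBPE, RUNX1, RUNX2, GATA2, CD34, POU5F1 and NANOG; other genes with values were picked after these were seen, and some genes that the rule picks are not reported here. Alternatives were RLE scaling, TMM without globins and top genes, other filters, DESeq2 1.42.0, limma-voom 3.58.1, all 18 libraries, lengths as offsets, replicate blocks, a threshold of 0.05, the long arm of chromosome 1 (1q) left out and each replicate left out; limma on log2(CPM + 1) and both D0 replicates 1 left out were added after the data were seen. Day 30 libraries entered the alternative over 18 libraries alone. Genotypes apart at D0 or D16 were a condition for the largest interactions, so lack of overlap was partly set by that choice. The share of all genes without overlap is not given.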

Additional observations from a re-analysis of the deposited data

Results flagged for a closer look

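The genotype effect differed between the 2 days, by the interaction test itself, for 2061 genes, and it was called at both days with opposite signs for 39 of them. Among the named genes, the effect turned from lower in the mutant at D0 to higher at D16 for PRDM1 (interaction 1.80 on the log2 scale), KIT (2.76), VWF (2.73), FN1 (2.41), CDK7 (6.77), HNF4A (4.02), ACP3 (2.86) and DPP4 (2.85), and from higher to lower for CLC (−3.80). CDK7 is the least certain of these, since its libraries of 1 group ranged from 0.792 to 21.0 CPM at D16.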

How the results depend on the processing

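The 2061 interaction calls became 1281 over all 18 libraries (rose less 435, fell less 443, fell further 124) and 1294 with length offsets (rose less 476, fell less 438, rose further 119, fell further 138). They became 3361 with a replicate block within each day (rose less 1178, fell less 1154, rose further 289), and 1330 without both D0 replicates 1 (fell less 439, rose further 115, fell further 128). At an adjusted p under 0.05 there were 1260 (rose less 463, fell less 402, rose further 122, fell further 137), and limma on log2(CPM + 1) gave 1128 that rose less and 340 that rose further. Leaving out single libraries gave 1280 to 3434 calls (rose less 456 to 1195, fell less 419 to 1369, rose further 126 to 256, fell further 133 to 257). The causes were not tested.

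One block for the replicate number over both days gave 2485 calls. Numbers are shared between groups, but the sources do not say that they mark a pairing, and same-numbered libraries correlated at 0.469, 0.232 and 0.348 at D0 and at 0.0741, 0.291 and 0.435 at D16. RLE scaling gave 2052 calls, DESeq2 2471 and limma-voom 1951.

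Of 89 named genes with a call, 60 kept it in each of the 12 fits without 1 library and 47 under every alternative. The direction turned for CEBPE without mutant D0 replicate 3 (0.77, with −2.94 as the lowest value without 1 library) and for HBG1 without it (0.82, lowest −1.53), by limma-voom (0.36) and on log2(CPM + 1) (0.71), none of them called. Without 1 library, list medians also moved by over 1.5 times for primitive streak and mesoderm genes (to 0.42 without mutant D16 replicate 2), erythroid genes (0.36, mutant D16 replicate 3), stroma genes (0.40, mutant D16 replicate 1) and proliferation genes (0.42, WT D16 replicate 3). Small medians ranged over or near 0 in these fits: globins −0.39 to 0.17, lymphoid −0.046 to 0.57, interferon-stimulated −0.35 to 0.042, microRNA genes from 0.052, and ribosomal −0.24 to −0.050. Depth limits the genes near 0 at D0.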
